A study of Mus musculus with 6 samples.

Results

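The chemokine ligands are the genes whose symbol in the deposited gene table starts with Ccl, Cxcl, Xcl or Cx3cl followed by a digit, and 47 of the 55536 named genes met that rule. They were followed in 6 mouse RNA-seq libraries, 1 per group: macrophages grown from bone marrow with GM-CSF (GM-BMDM) after 3 h of interleukin-6 (IL6) or without it, marrow macrophages grown with M-CSF instead (M-BMDM) without IL6, after 3 h of it or after 24 h of it, and uncultured bone marrow cells (BM). All groups came from C57BL/6 mice aged 8 weeks, and each culture lasted 7 days with its growth factor. The labels give no IL6 dose, no 24 h culture without IL6 and no GM-BMDM with 24 h of IL6, and nothing in them says that the libraries came from separate animals. With 1 library per group no difference has a replicate check and no p-value is given, and the intervals printed cover counting error only.

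Chemokines are small secreted proteins that steer leukocytes by binding receptors coupled to G proteins on the cell surface. Families are named by the spacing of the first cysteines (C, CC, CXC and CX3C), and most family members can be sorted by the receptor, and so by the cell, that they attract. Macrophages are a major source of those that call in monocytes, neutrophils and T cells, and many of these genes are switched on through NF-kappaB or interferon signalling. In bone marrow, chemokines from stromal cells are known for holding stem cells and neutrophils in place.

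The libraries held 18567482 to 24196082 estimated counts. Levels are given as CPM, counts scaled by TMM to a common library size, and a gene was compared between libraries when it reached 5 CPM in either of them. A gene is said to have risen or fallen where its libraries differed 2-fold or more, the 95% counting interval of the ratio left out 1, and the larger value reached 5 CPM. The cultures carried macrophage transcripts: Csf1r, the M-CSF receptor, stood at 1050 to 3406 CPM in the 5 cultures and 171 CPM in BM, and Cd68 at 846 to 1135 CPM in the cultures and 62.8 CPM in BM. Of 9 macrophage markers, 9 were higher than BM in GM-BMDM and 7 in M-BMDM, both without IL6. Over all genes compared, 19.8% and 20.1% were higher. In M-BMDM without IL6, Mertk (7.68 CPM, 11.4 CPM in BM) and Itgam (1021 and 765 CPM) did not pass. Summed erythroid markers stood at 5.43 to 10.3 CPM in the cultures and 81619 CPM in BM, and summed B lineage markers at 0.272 to 0.872 CPM and 636 CPM.

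Of the 47 ligand genes, 18 reached 5 CPM in at least 1 library, 12 had counts but stayed under 5 CPM everywhere, and 17 had no count in any library. The genes sit in clusters: chromosome 11 holds 12 of them, 9 of which reached 5 CPM, chromosome 5 holds 11 with 4 reaching it, and chromosome 4 holds 7 with none. All positions are on the GRCm38 build. RefSeq promoter windows were matched for 26 of the 47 genes and 13 of the 18 that reached 5 CPM. Ccl2, Ccl4, Ccl5, Ccl7 and Cxcl16 reached 5 CPM but had no window and were not searched. The 250 bases before each start were searched on both strands for the kappaB sequence bound by NF-kappaB, searched as GGGA, any 2 bases and TTCC. Those letters were found for 4 of the 13, Cxcl1, Cxcl2, Cxcl3 and Cxcl10, and in 1.21% of 32851 windows of the same length. Cxcl1, Cxcl2 and Cxcl3 lie close together and hold the same run, so they may not be separate finds. Among the matched genes that stayed under 5 CPM, Ccl1 also held the letters, at -196. The 4 genes that reached 5 CPM lie on chromosome 5, and all of them stood lower in M-BMDM after 24 h of IL6 than without it, so their promoters are shown first. In that comparison 12 of 16 ligands were lower, these 4 among them, against 8.93% of all genes compared, as described below. All 4 were under 5 CPM after 24 h, so they were compared only through the library without IL6 and had to stand lower. Each line gives the 220 bases before the RefSeq start on the strand of the gene, 5′ to 3′, from GRCm38.p6, with motif matches in capitals. Positions count back from the start.
Cxcl1 (chr5:90891025-90891244, plus strand): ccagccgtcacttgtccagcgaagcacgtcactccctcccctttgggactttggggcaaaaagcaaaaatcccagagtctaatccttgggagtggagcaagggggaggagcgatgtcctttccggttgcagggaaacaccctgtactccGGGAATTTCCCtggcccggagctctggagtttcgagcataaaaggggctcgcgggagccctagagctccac
Cxcl2 (chr5:90903679-90903898, plus strand): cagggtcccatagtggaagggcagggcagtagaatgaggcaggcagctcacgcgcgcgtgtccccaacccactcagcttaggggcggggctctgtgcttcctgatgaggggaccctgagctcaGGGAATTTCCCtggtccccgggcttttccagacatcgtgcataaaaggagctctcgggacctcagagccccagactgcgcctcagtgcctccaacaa
Cxcl3 (chr5:90785881-90786100, plus strand): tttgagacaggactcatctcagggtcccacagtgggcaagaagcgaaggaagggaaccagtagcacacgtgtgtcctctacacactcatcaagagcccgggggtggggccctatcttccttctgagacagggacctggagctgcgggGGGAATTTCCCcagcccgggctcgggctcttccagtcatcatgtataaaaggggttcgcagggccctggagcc
Cxcl10 (chr5:92348890-92349109, minus strand): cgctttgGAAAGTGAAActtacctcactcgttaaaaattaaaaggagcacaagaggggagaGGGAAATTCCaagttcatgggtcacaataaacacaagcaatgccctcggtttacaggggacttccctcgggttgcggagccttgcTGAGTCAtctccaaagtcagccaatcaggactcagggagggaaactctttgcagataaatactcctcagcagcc
In Cxcl1, Cxcl2 and Cxcl3 the capitals mark the same run, GGGAATTTCCC, which matches the kappaB letters on both strands in overlapping positions; the first match begins at -71, -97 and -73. In Cxcl10 the capitals mark, from left to right, a match at -213 to the interferon-response sequence (TTTC, any 2 bases and TTTC), read on the opposite strand, a kappaB match at -159 and an AP-1 match (TGANTCA) at -74. The interferon-response letters occurred in 2.98% of all windows, the AP-1 letters in 6.75%. A match describes letters and not binding.

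The 3 genes that differed by the widest margins between the growth factors, Ccl17, Ccl6 and Cxcl14, are shown next in the same way. In Ccl17 the capitals mark a match at -99 to the STAT sequence TTCNNNGAA, which occurred in 7.02% of windows. In Cxcl14 they mark a STAT match at -191 and an interferon-response match at -172. No capitals stand in Ccl6, since none of the 4 motifs was found in its window.
Ccl17 (chr8:94810233-94810452, plus strand): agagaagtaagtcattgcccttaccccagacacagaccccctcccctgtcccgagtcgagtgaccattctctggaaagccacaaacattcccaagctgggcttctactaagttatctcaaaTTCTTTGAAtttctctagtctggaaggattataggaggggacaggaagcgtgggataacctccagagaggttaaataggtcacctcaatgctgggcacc
Ccl6 (chr11:83593088-83593307, minus strand): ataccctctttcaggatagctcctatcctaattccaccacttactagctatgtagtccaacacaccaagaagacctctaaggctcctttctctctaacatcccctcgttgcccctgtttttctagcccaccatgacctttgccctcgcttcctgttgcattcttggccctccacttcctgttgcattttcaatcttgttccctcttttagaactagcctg
Cxcl14 (chr13:56296552-56296771, minus strand): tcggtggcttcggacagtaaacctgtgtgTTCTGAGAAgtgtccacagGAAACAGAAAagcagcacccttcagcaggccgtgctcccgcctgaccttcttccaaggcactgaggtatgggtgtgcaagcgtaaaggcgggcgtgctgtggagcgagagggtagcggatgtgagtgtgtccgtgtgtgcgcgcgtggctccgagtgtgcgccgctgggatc
Among the 13 genes that reached 5 CPM and have a window, the only other match to any of the 4 motifs was an AP-1 match at -53 in Ccl9. Genes that did not reach 5 CPM held matches too: kappaB in Ccl1, interferon-response at -208 in Ccl19, and AP-1 at -77 in Ccl27a and at -65 in Ccl27b.

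Some neighbours may share reads, which would limit how finely they can be told apart. The estimated counts of Ccl3 and Ccl4 were not whole numbers in 6 of 6 libraries, while their sum was whole, within 0.006, in 6 of 6. Ccl3 and Ccl4 are therefore also given summed where that matters. Yet 0% of the 50-base stretches of either gene occur in another gene, so the whole sums are the only sign of shared reads. The counts of Cxcl16 were also not whole in 6 of 6 libraries, while its sum with Zmynd15 was. Zmynd15 overlaps Cxcl16 on the other strand, and 16.9% of the 50-base stretches of Cxcl16 occur in Zmynd15. Exons of genes on the other strand also overlap Ccl25 (Elavl1), Ccl27a (Il11ra1), Cxcl10 (Art3), Cxcl11 (Gm2673) and Xcl1 (Gm20743). Whether counting used strand is not given in the sources used here. Cxcl2 shared 5.84% of such stretches with Cxcl3, and its counts were not whole in 1 library.

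The ligands as a whole took a larger part of the transcriptome in GM-BMDM than in any other group, through Ccl6. They made up 2.25% of all named counts in GM-BMDM after 3 h of IL6 and 2.12% in GM-BMDM without it, 0.34%, 0.34% and 0.14% in M-BMDM without IL6, after 3 h and after 24 h, and 0.08% in BM. Ccl6, which binds Ccr1, accounted for most of this in GM-BMDM. On a per-length scale (CPM per kb of merged exons), which lets different genes be set side by side, Ccl6 held 89.5% of the summed ligand level in GM-BMDM and ranked 5 among the 55536 named genes there by CPM per kb of the length given in the table. In M-BMDM without IL6 it ranked 439 by the same measure, and in BM 302.

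**Figure D1:**
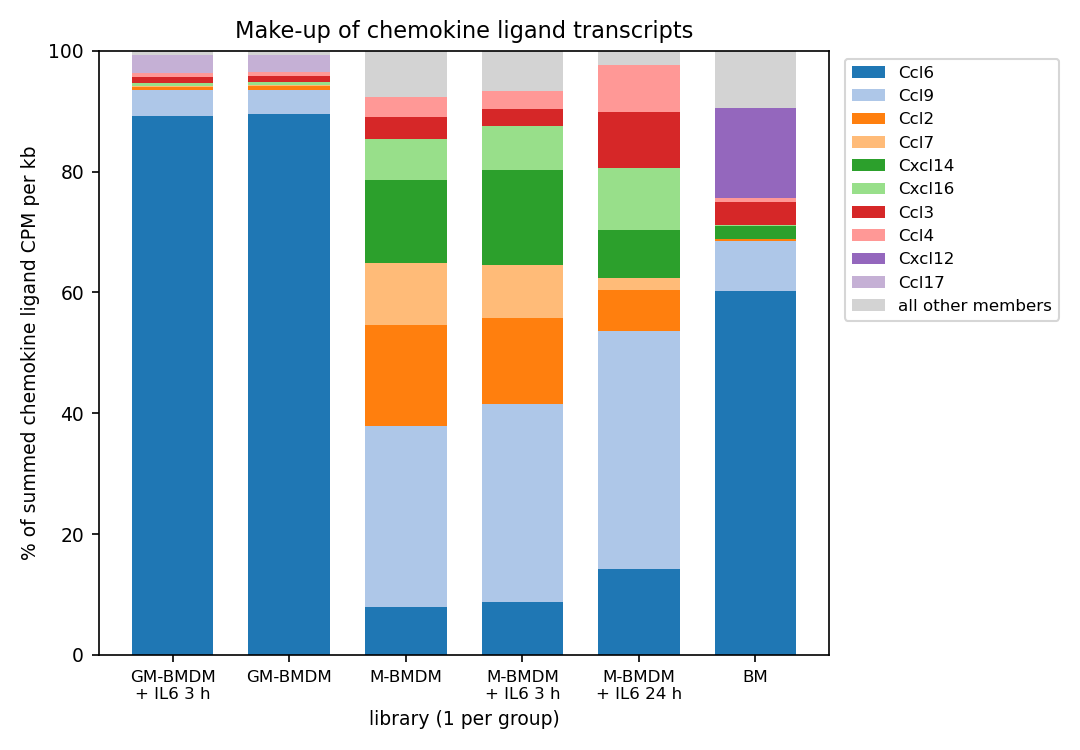
Share of the summed chemokine ligand level (scaled CPM per kb of merged exon length, in %) held by each ligand in the 6 libraries, 1 bar per library. Ccl6 fills 89.3% and 89.5% of the bars of GM-BMDM after 3 h of IL6 and without it, Ccl9 is the widest band in the 3 M-BMDM bars (30.1% without IL6, 32.8% after 3 h, 39.4% after 24 h), and Ccl6 (60.2%) and Cxcl12 (14.9%) lead in BM.

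M-BMDM had a more even mixture. Without IL6 the order per length was Ccl9 (508 CPM per kb), Ccl2 (282), Cxcl14 (231), Ccl7 (172), Ccl6 (133) and Cxcl16 (117). After 24 h of IL6 it was Ccl9 (223), Ccl6 (80.8), Cxcl16 (58.8) and Ccl3 (52.2), with Ccl2 seventh at 39.0 CPM per kb. In BM the order was Ccl6 (157), Cxcl12 (38.9), Ccl9 (21.7) and Ccl5 (14.2). Close neighbours in these orders, such as Ccl7 and Ccl6 at 148 CPM per kb each in M-BMDM after 3 h, have no replicate spread that could separate them.

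**Figure D2:**
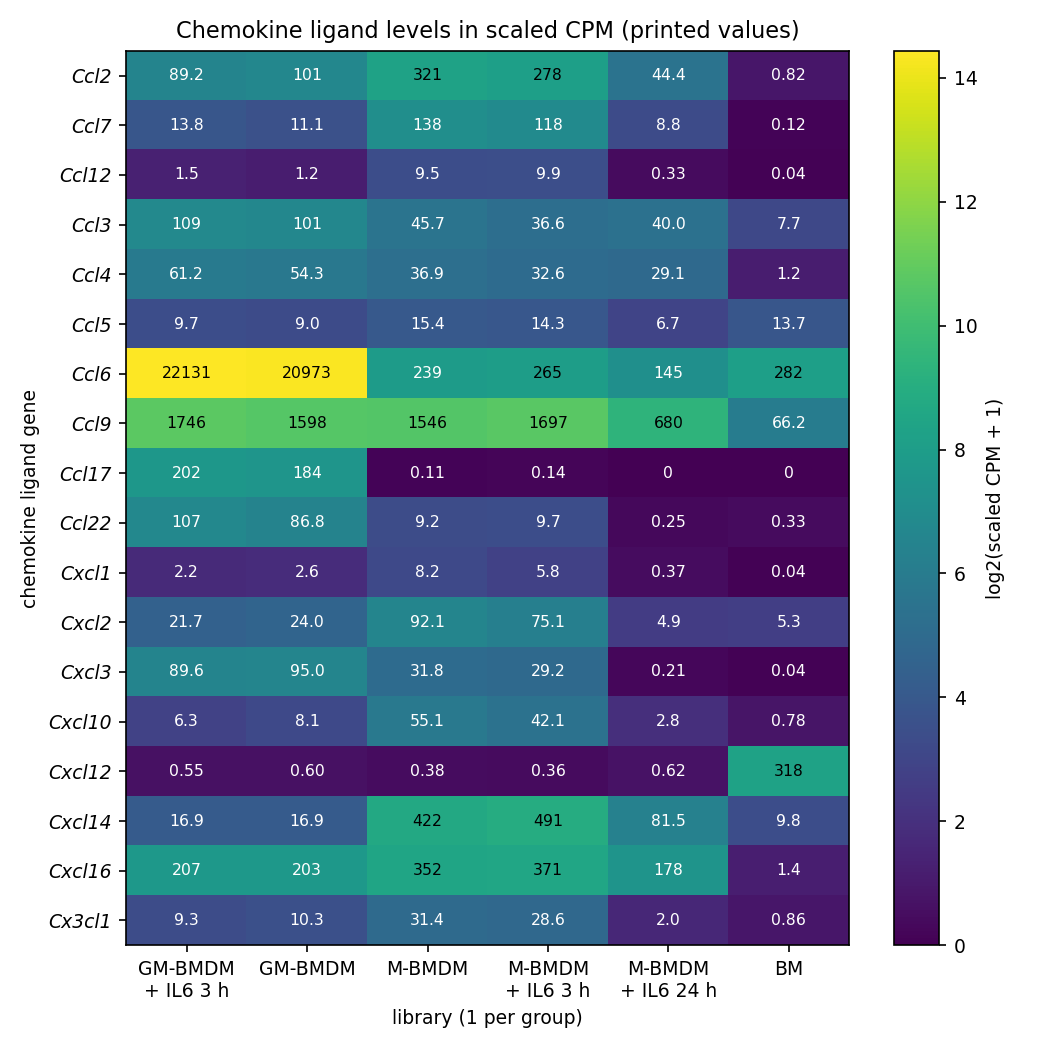
Level of the 18 chemokine ligands that reached 5 CPM, as colour (log2 of scaled CPM plus 1) with the scaled CPM printed in each cell, 1 column per library. Ccl6 in the GM-BMDM columns (22131 CPM after 3 h of IL6, 20973 CPM without it) is the brightest pair, Cxcl12 stands out in BM (318 CPM), and many ligands are darker in M-BMDM after 24 h of IL6 than in the M-BMDM columns to its left.

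Of the ligands listed for Ccr2, the receptor that brings monocytes out of the marrow and into tissue, the 3 that reached 5 CPM were highest in M-BMDM without IL6 and after 3 h of it. Ccl2 (chromosome 11, 82035571 to 82037453), the main monocyte attractant, had 89.2 CPM in GM-BMDM after 3 h of IL6 and 101 CPM in GM-BMDM without it. It had 321, 278 and 44.4 CPM in M-BMDM without IL6, after 3 h and after 24 h, and 0.823 CPM in BM. Its neighbour Ccl7 (82045712 to 82047525), which shares that receptor, had 13.8 and 11.1 CPM in GM-BMDM after 3 h and without IL6, 138, 118 and 8.84 CPM in M-BMDM without IL6, after 3 h and after 24 h, and 0.123 CPM in BM. For both genes M-BMDM after 24 h lay below the GM-BMDM libraries and above BM. Ccl12, another mouse Ccr2 ligand of this cluster, was scarcer, at 1.53 and 1.24 CPM in GM-BMDM after 3 h and without IL6, 9.50, 9.88 and 0.332 CPM in M-BMDM without IL6, after 3 h and after 24 h, and 0.0411 CPM in BM. Ccl8, listed with these ligands, stayed under 5 CPM and was not compared; it had 1.69 and 1.20 CPM in GM-BMDM after 3 h and without IL6, against 0.363 and 0.107 CPM in M-BMDM after 3 h and without IL6.

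Ccl3, Ccl4, Ccl5, Ccl6 and Ccl9, CC ligands that attract monocytes and T cells, lie close together on chromosome 11 and did not share one pattern. Ccl6 (83587882 to 83593087) had 22131 and 20973 CPM in GM-BMDM after 3 h of IL6 and without it, 239, 265 and 145 CPM in M-BMDM without IL6, after 3 h and after 24 h, and 282 CPM in BM. Ccl9 (83572919 to 83578636), the next gene and also a Ccr1 ligand, was abundant in every culture: 1746 and 1598 CPM in GM-BMDM, 1546, 1697 and 680.3 CPM in M-BMDM, in the same order of groups, against 66.2 CPM in BM. The adjacent genes thus differed in GM-BMDM, where Ccl6 stood far above M-BMDM and Ccl9 did not. Ccl3 had 109 and 101 CPM in GM-BMDM after 3 h and without IL6, 45.7, 36.6 and 40.0 CPM in M-BMDM without IL6, after 3 h and after 24 h, and 7.69 CPM in BM. Ccl4 had 61.2 and 54.3 CPM in GM-BMDM, 36.9, 32.6 and 29.1 CPM in M-BMDM, in that order, and 1.19 CPM in BM. Ccl5, a T cell attractant that T and NK cells also make, varied least, from 6.73 CPM (M-BMDM after 24 h) to 15.4 CPM (M-BMDM without IL6), with 8.97 CPM in GM-BMDM without IL6 and 13.7 CPM in BM.

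Both ligands of Ccr4, a receptor of helper and regulatory T cells, were chiefly found in GM-BMDM. Ccl17 (chromosome 8, 94810453 to 94812036) had 202 and 184 CPM in GM-BMDM after 3 h of IL6 and without it, 0.107, 0.136 and 0 CPM in M-BMDM without IL6, after 3 h and after 24 h, and 0 CPM in BM. A count of 0 allows up to 0.125 CPM in M-BMDM after 24 h and 0.123 CPM in BM. Ccl22 (94745590 to 94751699) had 107 and 86.8 CPM in GM-BMDM, 9.18, 9.75 and 0.249 CPM in M-BMDM, in the same order, and 0.329 CPM in BM. Cx3cl1, which lies between these genes on the chromosome, went the other way, as given below.

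Ligands of the neutrophil receptor Cxcr2 fell into 2 patterns. Cxcl1 had 2.24 and 2.62 CPM in GM-BMDM after 3 h and without IL6, 8.22, 5.80 and 0.374 CPM in M-BMDM without IL6, after 3 h and after 24 h, and 0.0411 CPM in BM. Cxcl2 had 21.7 and 24.0 CPM in GM-BMDM, 92.1, 75.1 and 4.94 CPM in M-BMDM, in that order, and 5.31 CPM in BM. Both were higher in M-BMDM than in GM-BMDM at matched IL6 times. Cxcl3 was the reverse, with 89.6 and 94.97 CPM in GM-BMDM after 3 h and without IL6, 31.8, 29.2 and 0.208 CPM in M-BMDM without IL6, after 3 h and after 24 h, and 0.0411 CPM in BM. The 3 genes carry the same kappaB run shown above.

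Of the ligands of Cxcr3, which guides activated T and NK cells, only Cxcl10 reached 5 CPM. It had 6.28 and 8.14 CPM in GM-BMDM after 3 h and without IL6, 55.1, 42.1 and 2.82 CPM in M-BMDM without IL6, after 3 h and after 24 h, and 0.782 CPM in BM. Cxcl9 reached at most 2.18 CPM (BM) and Cxcl11, annotated as a polymorphic pseudogene, at most 0.725 CPM (M-BMDM after 3 h).

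The homeostatic CXC ligands that reached 5 CPM, Cxcl12 and Cxcl14, did not share one pattern. Cxcl12, which marrow stromal cells make to hold Cxcr4-bearing cells in place, had 0.546 and 0.598 CPM in GM-BMDM after 3 h and without IL6, 0.376, 0.363 and 0.623 CPM in M-BMDM without IL6, after 3 h and after 24 h, and 318 CPM in BM. Cxcl14 (chromosome 13, 56288643 to 56296551), a ligand of epithelia and macrophages, had 16.9 CPM in each GM-BMDM library, 422, 491 and 81.5 CPM in M-BMDM without IL6, after 3 h and after 24 h, and 9.75 CPM in BM. M-BMDM without IL6 and after 3 h stood apart from the other libraries, and in both Cxcl14 was the CXC ligand with the highest level per kb.

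Cxcl16 and Cx3cl1 are made as membrane-anchored proteins that can be shed. Cxcl16, the ligand of Cxcr6, had 207 and 203 CPM in GM-BMDM after 3 h and without IL6, 352, 371 and 178 CPM in M-BMDM without IL6, after 3 h and after 24 h, and 1.36 CPM in BM. Cx3cl1 had 9.29 and 10.3 CPM in GM-BMDM, 31.4, 28.6 and 1.99 CPM in M-BMDM, in that order, and 0.864 CPM in BM. Its receptor gene Cx3cr1 was also high in M-BMDM, at 388 CPM without IL6, against 5.15 CPM in GM-BMDM without IL6.

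The remaining ligands were scarce. Besides those given above, Ccl25, a thymus and gut ligand, reached 4.03 CPM (M-BMDM without IL6), Ccl24, an eosinophil attractant, 2.71 CPM (GM-BMDM without IL6), and Ccl27a 2.16 CPM (M-BMDM after 24 h). Cxcl5, a Cxcr2 ligand, reached 1.81 CPM (BM). Xcl1, a product of T and NK cells, had 35 counts in BM (1.44 CPM) and none in any culture, which allows up to 0.164 CPM. Ccl28 reached 0.492 CPM, Ccl19 0.453 CPM, Ccl1 0.276 CPM and Ccl20 0.0460 CPM, which was a single count. Ccl11, Ccl26, Cxcl13, Cxcl15, Cxcl17, the Ccl21 genes, Ccl27, Ccl27b, a further Ccl19 row and the Ccl19 pseudogenes had no count, which allows between 0.123 and 0.164 CPM, depending on the library. Copies of Ccl19, Ccl21 and Ccl27 share much of their sequence, such as 71.6% of the 50-base stretches of Ccl21a and 52.0% of those of Ccl19, so a low value for one copy is uncertain.

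Set against uncultured marrow, M-BMDM expressed a broad set of ligands that BM barely contained. Of 17 ligands compared, 14 were higher in M-BMDM without IL6 and 1 was lower, while over all genes compared 20.1% were higher and 23.0% lower. The median log2 ratio (with a prior count of 2) was 5.04 for the ligands and 0.02 for all genes compared. Of the 17, 11 reached 5 CPM in only 1 of the libraries and so had to differ; of the 6 that reached it in both, Ccl3, Ccl9, Cxcl14 and Cxcl2 rose and Ccl5 and Ccl6 did not pass. The log2 ratios were 10.12 (8.57 to 12.40) for Ccl7, 8.61 (7.98 to 9.32) for Ccl2, 8.02 (7.53 to 8.56) for Cxcl16, 5.44 (5.25 to 5.63) for Cxcl14 and 4.55 (4.47 to 4.62) for Ccl9. Ccl6 (-0.23, interval -0.29 to -0.18) and Ccl5 (0.17, -0.06 to 0.40) were within 2-fold of BM. Cxcl12 fell by 9.72 on the log2 scale (interval -11.04 to -8.68). In such bulk samples fewer cells of a type and less RNA per cell cannot be told apart.

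GM-BMDM without IL6 shared much of this with M-BMDM, but both comparisons use the same BM library and are not independent. Of 16 ligands compared, 13 stood higher in GM-BMDM and 1 stood lower, against 19.8% and 22.3% of all genes compared. Only 6 of the 16 reached 5 CPM in both libraries, and of these Ccl3, Ccl6, Ccl9 and Cxcl2 rose. The other 10, Ccl22, Cxcl3 and Ccl17 among them, reached it in only 1 library, so their direction was fixed. Ccl6 rose 74.5-fold (log2 6.22, 6.18 to 6.25), Ccl22 rose by 8.04 (7.06 to 9.26) and Cxcl3 by 11.17 (8.69 to 16.48) on the log2 scale, and Ccl17, not counted in BM, stood at least 1488-fold higher, with the bound set at 3 counts there. Cxcl14 (0.79, 0.55 to 1.03) and Ccl5 (-0.61, -0.87 to -0.35) did not pass. Cxcl12 fell by 9.06 on the log2 scale. Marrow stromal and endothelial markers summed to 48.1 to 71.7 CPM in the cultures, with 1 of 10 at 0 in each, and to 679 CPM in BM. Of these 10, 8 were lower than BM in GM-BMDM and 8 in M-BMDM, both without IL6. Kdr was higher in both (20.6 CPM in GM-BMDM, 28.03 CPM in M-BMDM and 4.98 CPM in BM). T and NK cell markers summed to 0.208 to 1.15 CPM in the cultures, with 4 to 7 of 8 at 0, and to 82.6 CPM in BM. Ccl5, by contrast, stayed within 2-fold of BM in GM-BMDM and M-BMDM without IL6. The T and NK markers Ncr1 and Gzma had no count in any culture. The part of these cells in the Cxcl12, Ccl5 and Xcl1 values was not tested.

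The platelet chemokines, whose symbols fall outside the rule, gave a mixed picture. Ppbp stood at 14.6 CPM in GM-BMDM and 9.18 CPM in M-BMDM, both without IL6, and 260 CPM in BM. Pf4 stood at 74.4, 38.4 and 66.0 CPM in these groups, within 2-fold of BM. Among receptor genes, the neutrophil receptor Cxcr2 was lower in M-BMDM than in BM (0.322 and 246 CPM), and Cx3cr1, named after its values were seen, was higher (388 and 34.4 CPM). In GM-BMDM Ccr1, also named after its values were seen, was higher than in BM (244 and 96.6 CPM).

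The growth factor comparison asks how GM-BMDM differ from M-BMDM, and could be made in a pair without IL6 and a pair after 3 h of IL6 that share no library. In GM-BMDM the Ccr4 ligands, Ccl6, Cxcl3 and Ccl3 were higher, and Ccl2, Ccl7, Ccl12, Cxcl10, Cxcl1, Cxcl2, Cxcl14 and Cx3cl1 were lower. Without IL6, 5 of 17 ligands were higher in GM-BMDM and 8 were lower, against 10.8% and 8.64% of all genes compared. After 3 h of IL6 the counts were again 5 and 8 of 17, against 10.6% and 8.06%. The same 5 and the same 8 genes were called in both pairs, and over all genes the calls in common made up 83.6% of the higher and 79.8% of the lower calls without IL6, and 85.6% and 86.0% of those after 3 h. Of the 17, 14 reached 5 CPM in both libraries of each pair.

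**Figure D3:**
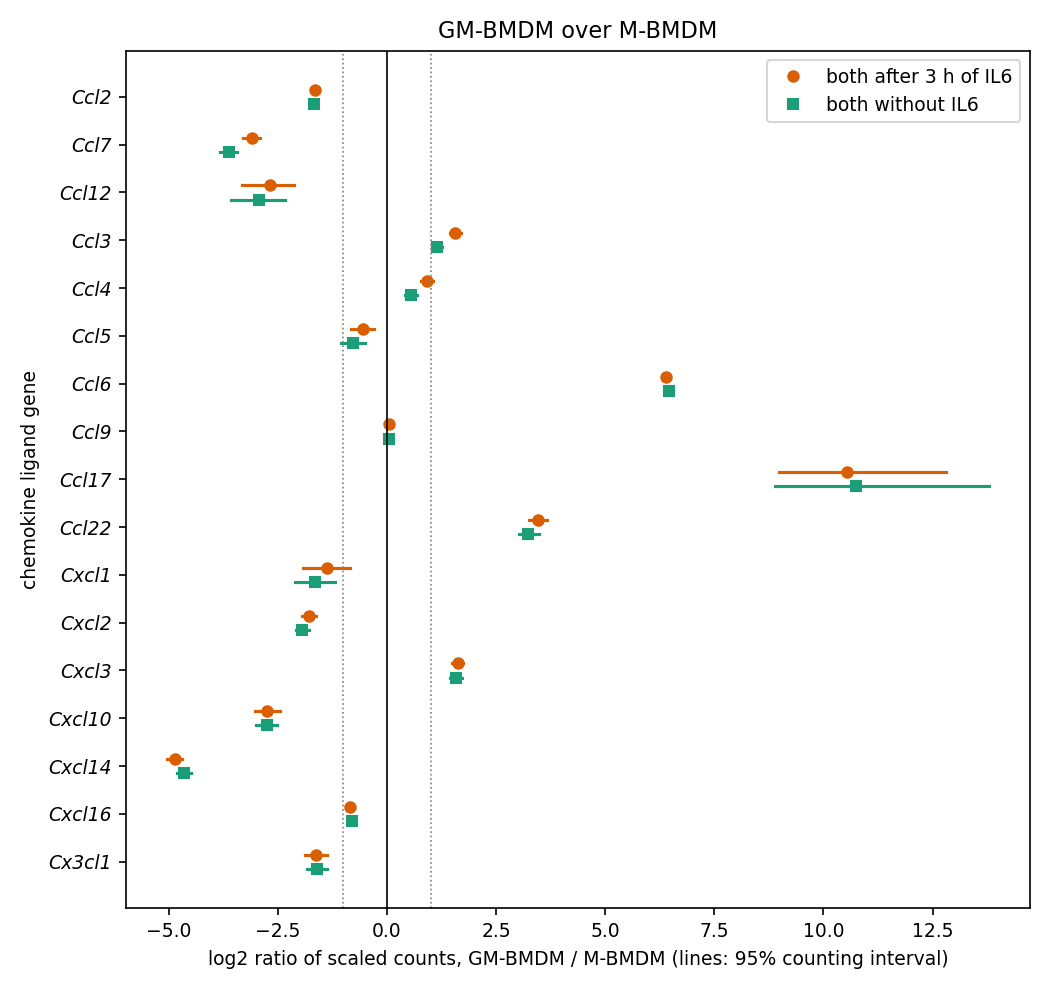
Log2 ratio of scaled counts, GM-BMDM over M-BMDM, for the 17 ligands compared, after 3 h of IL6 (circles) and without IL6 (squares); lines are 95% counting intervals and dotted lines mark 2-fold. Ccl17 (10.54 after 3 h, 10.74 without IL6) and Ccl6 (6.38 and 6.45) lie farthest to the right, Cxcl14 (-4.86 and -4.65) farthest to the left, and the 2 pairs give nearly the same value for most genes.

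Ccl17 differed most, with a log2 ratio of 10.74 (8.89 to 13.79) without IL6 and 10.54 (8.99 to 12.81) after 3 h. Ccl6 was 87.6-fold higher in GM-BMDM without IL6 (log2 6.45, 6.41 to 6.50). Ccl22 was higher by 3.24 (3.01 to 3.47) and 3.45 (3.25 to 3.66) on the log2 scale without IL6 and after 3 h, and Cxcl3 by 1.58 and 1.62. These differences were far wider than their counting intervals, but the spread between cultures of the same kind was not measured. Ccl3 passed on its own (1.14 without IL6, 1.57 after 3 h). Summed with Ccl4, with which it may share reads, it did not pass without IL6 (0.91, 0.82 to 1.00), and it did after 3 h (1.29, 1.20 to 1.38). With scaling by total counts the Ccl3 ratio without IL6 was 0.98, just under 2-fold.

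Among the ligands lower in GM-BMDM, Cxcl14 was 25.0-fold lower without IL6 (log2 -4.65, -4.80 to -4.49). Ccl7 had log2 ratios of -3.63 without IL6 and -3.10 after 3 h, Ccl12 -2.94 and -2.69, and Ccl2 -1.67 and -1.64. Cxcl10 had -2.76 and -2.74, Cxcl2 -1.94 and -1.79, Cxcl1 -1.65 and -1.37, and Cx3cl1 -1.61 and -1.62. The 4 that passed in neither pair were Ccl9 (0.05 and 0.04), Ccl4 (0.56 and 0.91), Ccl5 (-0.78 and -0.56) and Cxcl16 (-0.80 and -0.84).

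Other gene groups differed alongside. Without IL6, 10.8% of all genes compared were higher in GM-BMDM than in M-BMDM and 8.64% were lower. Among receptors without IL6, Ccr7 (20.2 and 0.215 CPM in GM-BMDM and M-BMDM), Ccr1 (244 and 17.1 CPM) and, named after its value was seen, Ccr2 (19.8 and 4.62 CPM) were higher in GM-BMDM, and Cx3cr1 was lower. Of 12 interferon-stimulated genes other than chemokines, 11 were lower in GM-BMDM, with a median log2 ratio of -2.74 against -0.02 for all genes compared; Ifit3 stood at 3.45 and 69.1 CPM and Irf7 at 6.58 and 64.0 CPM. Of 12 NF-kappaB targets other than chemokines, 7 were lower, led by Ptgs2 (7.59 and 38.0 CPM), and 1, Il1a, was higher (99.5 and 33.5 CPM; named after its value was seen). Dendritic cell markers summed to 1560 CPM in GM-BMDM and 249 CPM in M-BMDM without IL6, mostly through Itgax (994 and 26.1 CPM) and H2-Aa (508 and 209 CPM). None of these 8 markers was at 0 in either library, but Flt3 stood at 0.322 CPM in each. Neutrophil markers summed to 533 and 12.1 CPM, nearly all of it Mmp8 (513 and 9.61 CPM), while Ly6g had no count in any culture. Eosinophil, basophil and mast cell markers summed to 60.5 and 2.52 CPM, nearly all of it Siglecf (59.2 and 2.36 CPM), with 2 and 3 of 7 at 0. Their part in the ligand differences was not tested.

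After 3 h of IL6 no ligand passed in either macrophage type. In M-BMDM, 16 ligands were compared with none called in either direction, and over all genes 0.0906% were called higher and 0.272% lower. Their log2 ratios ran from -0.50 (Cxcl1, interval -0.85 to -0.15) to 0.22 (Cxcl14, 0.17 to 0.26), and 11 of the 16 intervals excluded 1, with 4 above and 7 below. In GM-BMDM, 15 were compared with none called, against 0.0585% and 0.107% of all genes. Here the ratios ran from -0.37 (Cxcl10, -0.73 to -0.03) to 0.31 (Ccl7, 0.05 to 0.57), with 7 intervals above 1 and 2 below. Differences of this size cannot be set against the spread between cultures, which was not measured. Ccl9 was 0.13 higher on the log2 scale in both types, and Cxcl10 was 0.39 lower in M-BMDM and 0.37 lower in GM-BMDM.

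**Figure D4:**
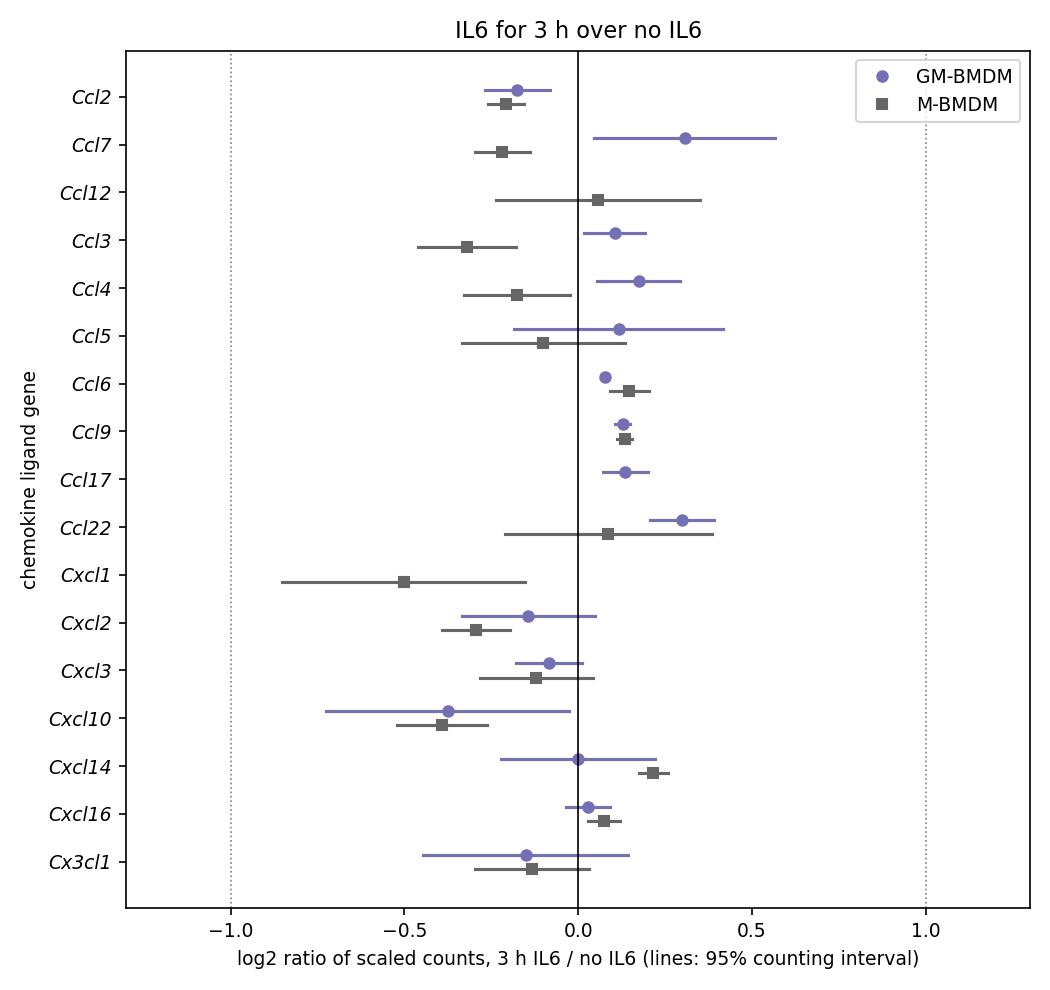
Log2 ratio of scaled counts, 3 h of IL6 over no IL6, in GM-BMDM (circles) and M-BMDM (squares) for the ligands compared in each; lines are 95% counting intervals and dotted lines mark 2-fold. All points lie inside the 2-fold lines, from -0.50 (Cxcl1 in M-BMDM) to 0.31 (Ccl7 in GM-BMDM).

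The difference between the 2 responses, GM-BMDM minus M-BMDM on the log2 scale, had a counting interval that excluded 0 for 4 of the 18 ligands. It was 0.52 (0.26 to 0.79) for Ccl7, 0.43 (0.26 to 0.59) for Ccl3, 0.35 (0.16 to 0.54) for Ccl4 and -0.07 (-0.13 to -0.01) for Ccl6. Socs3, the feedback inhibitor that IL6 is known to induce through Stat3, stood at 141 CPM in GM-BMDM after 3 h and 142 CPM without IL6, and at 99.3 and 102 CPM in M-BMDM after 3 h and without IL6. The receptor chain genes Il6ra and Il6st were present in every library, at 36.2 to 99.5 and 66.0 to 137 CPM.

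After 24 h of IL6 most chemokine ligands were lower in M-BMDM, and their summed level was 1231 CPM, against 3362 CPM without IL6. Of 16 ligands compared with M-BMDM without IL6, none was higher and 12 were lower, against 11.5% and 8.93% of all genes compared, and all 16 counting intervals lay below 1. The median log2 ratio was -3.38 for the ligands and 0.02 for all genes. Of the 16, 9 reached 5 CPM in both libraries, and of these Ccl2, Ccl5, Ccl7, Ccl9 and Cxcl14 fell. The other 7 were under 5 CPM after 24 h and so had to stand lower. Against the 3 h library 13 of 16 were lower, Cxcl16 being the further one, against 8.59% of all genes; both comparisons use the same 24 h library. The labels give 7 days for each culture and do not say whether the 24 h of IL6 came within or after them. They list no 24 h culture without IL6, so IL6 and any added culture time cannot be told apart.

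Cxcl3 fell most, 153-fold (log2 -7.26, -8.89 to -6.03), followed by Ccl22 (-5.20, -6.67 to -4.05), Ccl12 (-4.84, -6.07 to -3.83) and Cxcl1 (-4.46, -5.61 to -3.50). Cxcl10 (-4.29), Cxcl2 (-4.22), Cx3cl1 (-3.98) and Ccl7 (-3.96) fell to a similar degree. The 4 genes whose promoter windows hold the kappaB letters were among these 8, as were Ccl12, Ccl22 and Cx3cl1, whose windows lack them. These 7 genes are the ones under 5 CPM after 24 h, whose direction was fixed by the 5 CPM limit. Ccl7 had no window and was not searched. Ccl2 (-2.85, -2.95 to -2.76) and Cxcl14 (-2.37, -2.44 to -2.30) fell less, to 44.4 and 81.5 CPM. Ccl9 and Ccl5 fell by 1.18 and 1.19 on the log2 scale. Those that did not pass were Cxcl16 (-0.99, -1.04 to -0.93), Ccl6 (-0.72), Ccl4 (-0.34) and Ccl3 (-0.19), and the sum of Ccl3 and Ccl4 had a log2 ratio of -0.26 (-0.36 to -0.16). Scaled by upper-quartile factors or DESeq2 size factors, Cxcl16 passed too (-1.05 and -1.02).

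**Figure D5:**
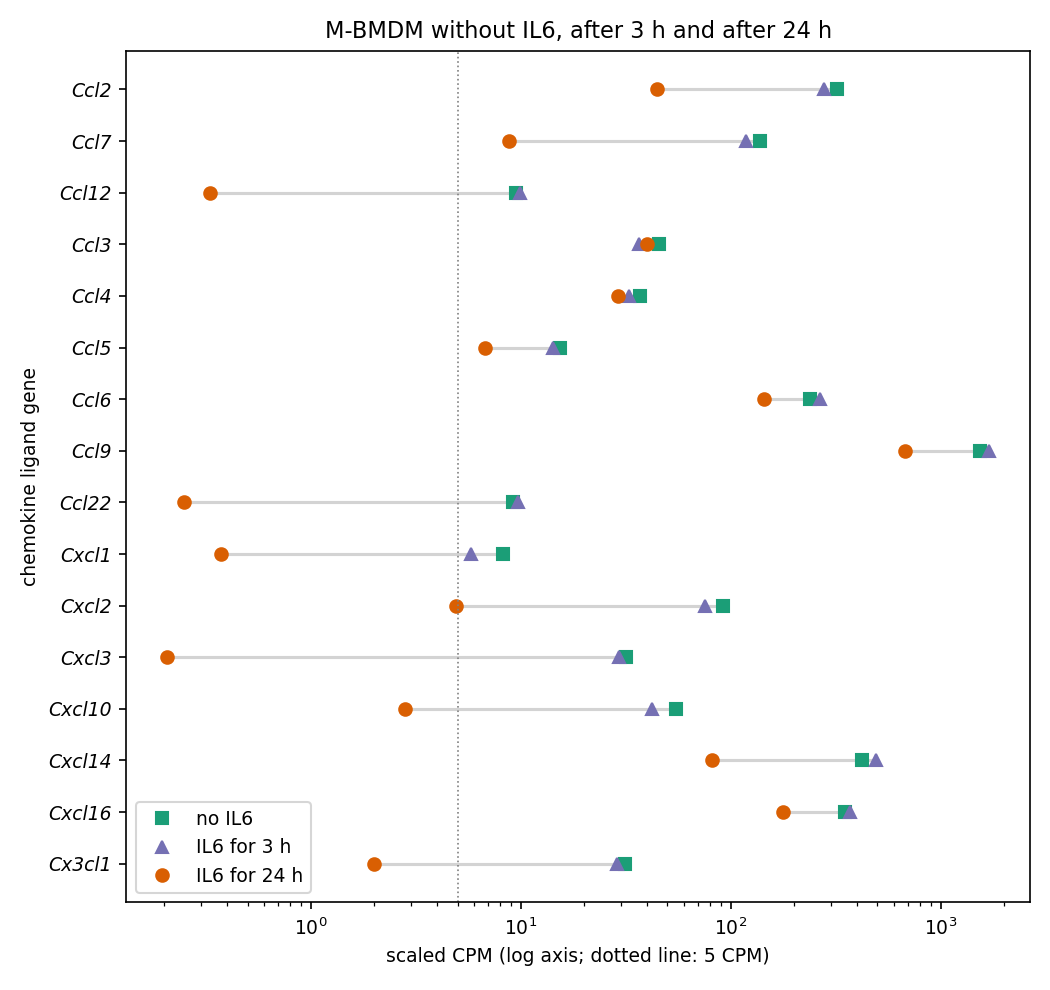
Scaled CPM (log axis) of 16 ligands in M-BMDM without IL6 (squares), after 3 h of IL6 (triangles) and after 24 h of it (circles); the dotted line is 5 CPM. The first pair of symbols nearly coincides for each gene, while the circle lies farther left for most, from 0.208 CPM for Cxcl3 to 680.3 CPM for Ccl9.

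Genes of related pathways moved the same way at 24 h. Over all genes compared with M-BMDM without IL6, 11.5% were higher and 8.93% lower, with a median log2 ratio of 0.02. Of 12 NF-kappaB targets other than chemokines, 11 were lower after 24 h than without IL6 (median log2 ratio -2.12), led by Il1b (0.913 and 260 CPM), Il1a (0.166 and 33.5 CPM), Ptgs2 (2.24 and 38.0 CPM) and Tnf (19.8 and 169 CPM). Of 12 interferon-stimulated genes, 9 were lower (median -1.53), led by Mx1 (2.99 and 38.9 CPM) and Rsad2 (14.2 and 103 CPM). Socs3 stood at 7.60 CPM after 24 h and 102 CPM without IL6, a fall of 3.74 on the log2 scale, whereas Stat3 stood at 132 and 148 CPM. The receptors split, with Cxcr4 (108 and 45.9 CPM) and Cxcr3 (7.72 and 3.06 CPM) higher and Ccr1 (8.05 and 17.1 CPM) and Cx3cr1 (191 and 388 CPM) lower. Ppbp fell to 0.249 CPM after 24 h, against 9.18 CPM without IL6. Macrophage markers mostly held: of 9 compared, Mertk was higher (48.2 and 7.68 CPM) and Cd14 lower (530 and 1506 CPM), while Csf1r stood at 2363 and 3234 CPM. Of 3 dendritic cell markers compared, 2 were lower, and the list summed to 68.0 CPM after 24 h and 249 CPM without IL6; its part in the ligand values was not tested.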

How the data were processed

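Total RNA from 6 libraries was sequenced. The deposited table gives estimated counts per gene, which the authors derived from aligned reads; per the submitters' processing notes the tools were HISAT2, StringTie and DESeq2 and the build GRCm38, with versions, settings and strand of counting not given in the sources used here. Of 56278 rows, 742 without a gene name (0.240% of the counts in GM-BMDM after 3 h of IL6 to 0.522% in BM) were left out. Of the 55536 named rows, 55450 matched a GENCODE M21 identifier, and 27 symbols stored as dates were restored. The expected counts were rounded and scaled by TMM (edgeR 4.0.16, R 4.3.3) on 14719 genes with at least 1 CPM in some library.

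Libraries were compared in pairs by dividing scaled counts, without a prior count, and the conditional binomial gave each ratio an exact 95% Clopper-Pearson interval (scipy 1.17.1, Python 3.11.15); list medians use a prior count of 2. Without molecular identifiers reads are not independent molecules, so intervals and bounds reflect counting error alone. No test was made, because each group has 1 library. The difference between the 3 h responses has an interval from the Poisson variances of 4 counts. Background percentages are over all named genes that reached 5 CPM in 1 or both libraries of a pair. Levels per kb use merged exon lengths from GENCODE M21; the length column of the deposited table was an alternative. Promoter windows are from RefSeq (GRCm38.p6). The steps were tested on simulated data.

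Every ligand that reached 5 CPM was named with its values, the others that had counts with their highest library, and up to 4 called genes per other list and comparison by size of ratio. The ligands and lists were chosen with earlier results of these data known. Alternatives were scaling by DESeq2 1.42.0, by upper quartiles or by total counts, CPM limits of 1 and 10 or none, folds of 1.5 and 4, ratios with no interval and a prior count; the length column and the Ccl3 and Ccl4 sum were added after seeing the data. Counts over the receptor list are not reported here.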

Additional observations from a re-analysis of the deposited data

Results flagged for a closer look

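For 3 ligands the sign of the 3 h difference was not the same in GM-BMDM and M-BMDM, and each counting interval excluded 1. Ccl7 had a log2 ratio of 0.31 in GM-BMDM and -0.22 in M-BMDM, Ccl3 of 0.11 and -0.32, and Ccl4 of 0.17 and -0.18. Ccl3 and Ccl4 may share reads, and the log2 ratio of their sum was 0.13 in GM-BMDM and -0.25 in M-BMDM. None of these values reached 2-fold. Against uncultured marrow, Ccl6 had a log2 ratio of 6.22 in GM-BMDM and -0.23 in M-BMDM, both without IL6. With 1 library per group these differences were not tested against the spread between cultures.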

How the results depend on the processing

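Alternatives could be tried only on the 6 libraries as they are. No paired analysis was possible because each group has 1 library and the labels give no replicate numbers, and no library could be left out of a group. No ligand changed direction where it had passed. Among counts of ligands called, GM-BMDM against BM gave 23 with no limit on low counts (14 with the limit of 5 CPM), and GM-BMDM against M-BMDM gave 7 at 4-fold both without IL6 and after 3 h (13 at 2-fold). For 3 h of IL6 in GM-BMDM the count was 1 with a limit of 1 CPM and 1 with no limit (Ccl27a, 0.710 and 1.47 CPM, chosen after its values were seen), against 0. The other counts stayed within 1.5 times under every alternative. With the length column of the table, added after seeing the data, Ccl6 held 90.5% of the ligand level in GM-BMDM with and without IL6 and 58.2% in BM, and Ccl9 held 26.2%, 28.9% and 36.0% in M-BMDM without IL6, after 3 h and after 24 h. Total counts moved the median of all genes in GM-BMDM against BM to -0.39 (-0.04 with TMM) and the split of all genes called higher and lower in GM-BMDM against M-BMDM without IL6 to 904 and 1191 (1134 and 907 with TMM), while the ligands gave 4 and 8. It gave 1692 and 3450 in GM-BMDM against BM (2250 and 2534 with TMM), 1463 and 757 in M-BMDM after 24 h against none (1186 and 921) and 1568 and 685 against 3 h (1204 and 883). Of the ligand ratios, 37 moved beyond their counting interval with total counts, 15 with upper-quartile factors and 4 with DESeq2 size factors. Depth limits ligands under 5 CPM.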
